A study of Arabidopsis thaliana with 2 samples.

Results

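Genes of plastid fatty acid and galactolipid synthesis were measured in wn1, an Arabidopsis thaliana mutant in the Col-0 background that the labels describe as whitening, and in Col-0 wild type. The set was chosen by gene identifier from knowledge of the pathway, with earlier results of these data known. All 39 identifiers were found among the 33565 rows of the deposited table. RNA came from shoots of 7-day-old seedlings, with cotyledon also named as tissue, grown on solid medium at 22 °C in days of 16 h light and 8 h dark. A single library was sequenced per genotype. The labels name neither the gene mutated in wn1 nor the number of plants pooled, and no time of day for sampling. With no replicates, no test was possible, no p-value is given, and each difference below is a difference between 2 libraries.

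Fatty acids of plants are built in the plastid. Pyruvate dehydrogenase makes acetyl-CoA, acetyl-CoA carboxylase turns it into malonyl-CoA, and a synthase of separate soluble enzymes lengthens the chain while acyl carrier protein holds it. The finished acyl groups are either released by thioesterases and sent to the endoplasmic reticulum (ER), or used inside the plastid for the galactolipids MGDG and DGDG, which form most of the thylakoid membrane, and for phosphatidylglycerol and sulfolipid.

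Levels are FPKM as the authors deposited them (fragments counted per kilobase of transcript, relative to all mapped fragments), so that levels of different genes can be compared per length. Differences are log2 differences of FPKM + 1, wn1 minus wild type. The 18788 genes that averaged 1 FPKM or more in the libraries served as the background, and their differences had a median of 0.03 and quartiles of -0.25 and 0.31. The steps between low values gave an estimated depth of 18700000 fragments for wn1 and 15380000 for wild type, so that even the least covered library value of a gene in the set, PGP1 in wild type, stood for about 207 fragments. Intervals printed with ratios are exact binomial intervals at 95% computed from such estimated fragments, and they cover counting error only. Dividing each library by its own total, of which 54.1% in wn1 was 1 plastid transfer RNA row (ATCG00010), moved the median of all genes to -0.85. Directions are therefore given relative to the median of all genes, and the genes of the set that turned under that scaling are named. Division by totals moves every ratio by the same factor. A gene can thus change sides of that median only through the 1 added afterwards and the filter applied again. Neither such a turn nor its absence is a check on direction.

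Markers of the tissue were checked first. The 6 markers of photosynthetic shoot cells summed to 40805 FPKM in wn1 and 49173 FPKM in wild type, with 5 of the 6 below the median of all genes, and all were detected in both libraries. The part of this difference in the results was not tested. The 10 seed markers (cruciferins, albumins and oleosins) summed to 38.6 FPKM in wn1 and 133 FPKM in wild type, with 5 of 7 kept genes at least 2-fold lower in wn1, against 3.65% of all genes kept; SESA1, 1 of the 5, was kept only through its wild-type value. Since developing seeds make much oil, this difference stands beside every result below, and its part in them was not tested. The 7 root markers summed to 2449 FPKM in wn1 and 1925 FPKM in wild type, mostly from PYK10. Of the 6 kept genes, 5 were below the median of all genes, all but PYK10. PRP3 had 146 FPKM in wn1 and 279 FPKM in wild type. EXPA18, EXPA7 and CASP1 had 26.6, 22.7 and 20.6 FPKM in wn1, against 51.3, 35.9 and 25.1 FPKM in wild type. Whether root material was present in the samples was not tested. In tissue labelled as shoots, fewer cells of a type and less RNA per cell cannot be told apart.

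None of the 39 genes was at least 2-fold higher or lower in wn1, against a background of 7.32% of all genes kept. All 39 passed the filter, with means from 7.80 FPKM for DGD2 to 669 FPKM for FAD2, and among genes with a mean of at least 5 FPKM the background was 7.52%. Their summed level was 4896 FPKM in wn1 and 4515 FPKM in wild type. The median difference was 0.11, close to that of all genes, with 24 genes above the median of all genes and 15 below it. That balance was 18 above and 21 below when libraries were divided by their totals, a change that came from the added 1 and the filter. Under that scaling 12 of the 39 genes passed 2-fold lower, as did 6911 of the 18893 genes kept. None of the 39 lay 2-fold from the shifted median of all genes. The differences ran from -0.71 for FABZ-1 to 0.82 for ATS2, with a standard deviation over genes of 0.38, against 0.63 over all genes kept. The latter value includes extremes of -16.04 and 19.94. By quartiles the spread was similar, at -0.15 and 0.38 in the set and -0.25 and 0.31 over all genes kept.

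**Figure D1:**
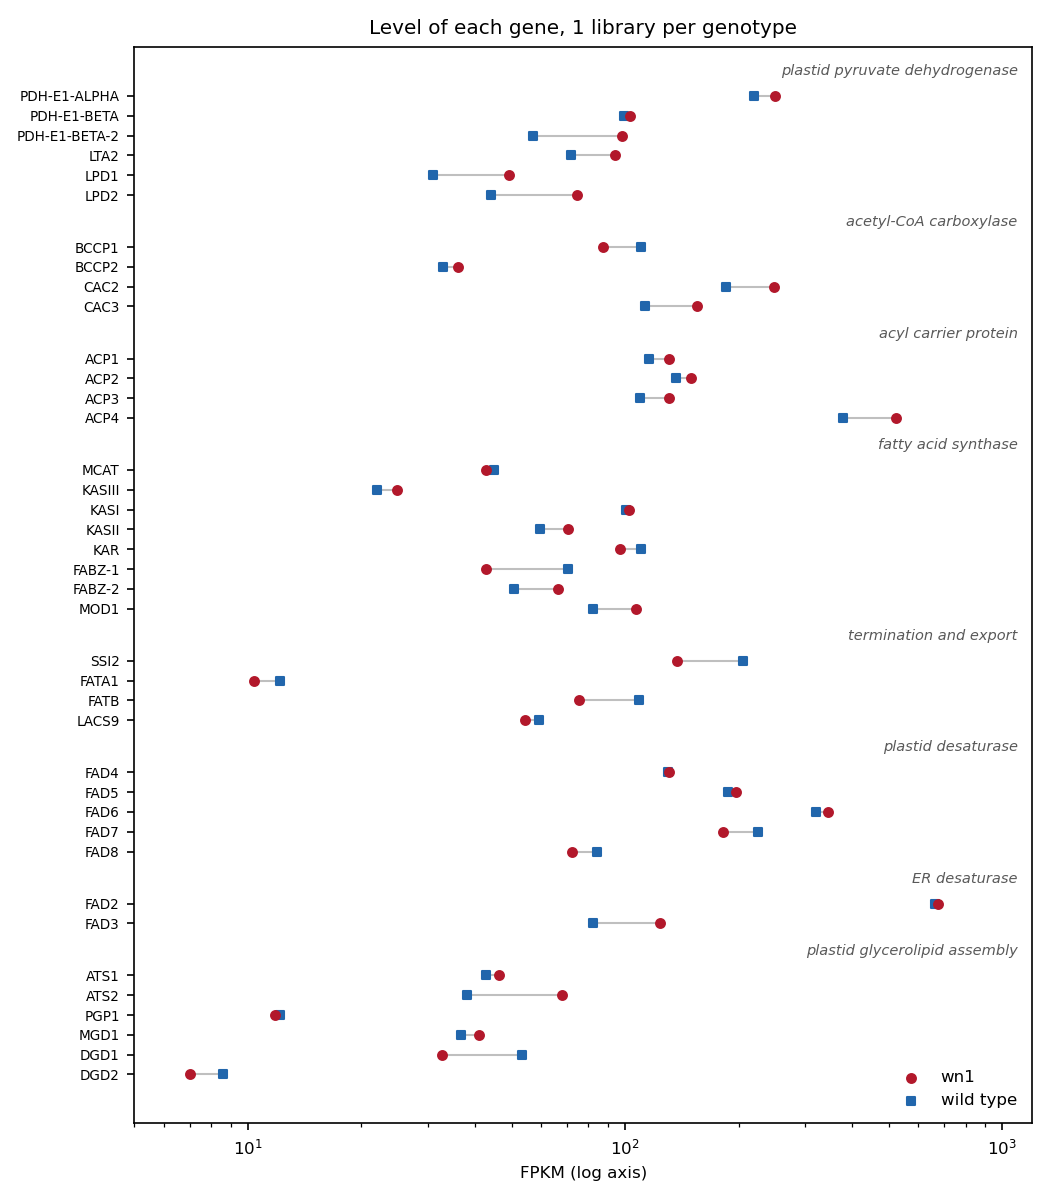
Level of each of the 39 genes in wn1 (red circles) and wild type (blue squares), as FPKM on a log axis, grouped by step of the pathway, with 1 library per genotype. As deposited, all 6 pyruvate dehydrogenase genes and all 4 acyl carrier protein genes lie to the right in wn1. All 4 genes grouped as chain termination and export, the desaturase SSI2 among them, lie to the left. After division by library totals every gene lies lower in wn1.

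The plastid pyruvate dehydrogenase genes stood highest of the steps. All 6 were above the median of all genes, with a median difference of 0.52, and 5 of 6 were above it after division by library totals. PDH-E1-BETA-2 (AT2G34590), 1 of the 2 genes for the beta chain of the decarboxylating E1 subunit, had 98.3 FPKM in wn1 and 56.9 FPKM in wild type, a ratio of 1.73 with a counting interval of 1.61 to 1.85. LPD2 (AT4G16155), a dihydrolipoyl dehydrogenase that reoxidizes the lipoyl arm of the complex, had 74.5 FPKM in wn1 and 44.2 FPKM in wild type. LPD1 (AT3G16950), the other gene for that subunit, had 49.3 FPKM in wn1 and 31.0 FPKM in wild type. These 3 genes were about equally apart between the libraries, with ratios of 1.73, 1.69 and 1.59. LTA2 (AT3G25860), the acetyltransferase subunit E2, was closer, with 94.2 FPKM in wn1 and 71.9 FPKM in wild type. The most abundant gene of the complex, PDH-E1-ALPHA (AT1G01090), had 250.4 FPKM in wn1 and 220.3 FPKM in wild type. PDH-E1-BETA (AT1G30120) had 103 FPKM in wn1 and 99.1 FPKM in wild type, and its ratio of 1.04 had a counting interval that included equal levels; it was the gene that fell below the median of all genes after division by totals.

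Genes outside the set were read from a list of pyruvate supply and lipoylation genes. Of 6, 4 were above the median of all genes, and none was 2-fold apart. The 4 included LIP1 (AT2G20860), a lipoylation gene with 134 FPKM in wn1 and 114 FPKM in wild type. Whether LIP1 acts on the plastid complex is not shown by these data, so its place among the 4 says nothing about plastid lipoylation. EMB3003 (AT1G34430), a further E2 gene, had 101 FPKM in wn1 and 77.2 FPKM in wild type. The plastid pyruvate kinase subunits PKP-ALPHA (AT3G22960) and PKP-BETA1 (AT5G52920) had 218 and 190.5 FPKM in wn1, against 150.2 and 147 FPKM in wild type. PPT1 (AT5G33320), the envelope carrier that imports phosphoenolpyruvate, lay on the other side with 39.2 FPKM in wn1 and 60.1 FPKM in wild type, as did the plastid enolase ENO1 (AT1G74030) with 33.9 FPKM in wn1 and 44.7 FPKM in wild type.

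The seed oil regulator WRINKLED1 activates many of these genes through a sequence named the AW-box. WRI1 itself (AT3G54320) had 7.22 FPKM in wn1 and 9.73 FPKM in wild type, below the median of all genes. In the 250 bases before the annotated gene start in RefSeq TAIR10.1, searched on both strands, the AW-box consensus occurred in 3 of the 39 genes (7.69%) and in 9.30% of all 27443 nuclear protein-coding genes. Matches were in 2 of the 6 pyruvate dehydrogenase genes and 1 of the 4 genes of termination and export. So few matches allow no reading by step. A window that stops at the gene start misses matches in the transcribed leader. The window of LPD2, at chr4:9157134-9157383 on the minus strand, is shown because it holds a match and the LPD2 complex stood highest of the steps. The matched letters are in capitals.
LPD2: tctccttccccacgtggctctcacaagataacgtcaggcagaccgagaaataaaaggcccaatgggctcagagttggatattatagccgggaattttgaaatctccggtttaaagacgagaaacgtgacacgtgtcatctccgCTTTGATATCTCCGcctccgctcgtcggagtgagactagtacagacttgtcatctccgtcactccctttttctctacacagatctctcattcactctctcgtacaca

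Of the 4 nuclear acetyl-CoA carboxylase genes, 3 were above the median of all genes and 1 below, also after division by library totals. CAC2 (AT5G35360), the biotin carboxylase, had 249 FPKM in wn1 and 185 FPKM in wild type. CAC3 (AT2G38040), the alpha chain of the carboxyltransferase, had 155 FPKM in wn1 and 113 FPKM in wild type. The catalytic subunits thus had ratios of 1.35 and 1.37. The biotin carrier genes differed from them: BCCP1 (AT5G16390) had 87.2 FPKM in wn1 and 111 FPKM in wild type, and BCCP2 (AT5G15530) had 36.2 FPKM in wn1 and 32.9 FPKM in wild type. BCCP2 overlaps a gene on the opposite strand by 192 bases, and the strand setting of the counting is not given. Of the 39 genes of the set, 12 overlap another annotated gene, 11 of them on the opposite strand.

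The remaining subunit of that enzyme, the beta chain of the carboxyltransferase, is encoded in the plastid by accD (ATCG00500), which is outside the set. It had 3.56 FPKM in wn1 and 0.313 FPKM in wild type, a log2 difference of 1.80 on the FPKM + 1 scale and of 3.15 with a pseudocount of 0.1. It passed the filter on the mean only through its wn1 value, so its difference is a description. Both levels are low, and how far the libraries captured plastid RNA, most of which carries no poly(A) tail, is not given. The BADC proteins resemble the biotin carrier without its biotin and restrain the enzyme; BADC1 (AT3G56130) had 114 FPKM in wn1 and 88.2 FPKM in wild type. BADC2 (AT1G52670) had 59.5 FPKM in wn1 and 53.9 FPKM in wild type, and BADC3 (AT3G15690) had 49.2 FPKM in wn1 and 49.5 FPKM in wild type. GLB1 (AT4G01900), the PII protein that binds the carboxylase, had 56.5 FPKM in wn1 and 58.9 FPKM in wild type.

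The 4 acyl carrier protein genes, whose products hold the growing chain on a prosthetic group bound to a serine, were all above the median of all genes, and 3 of 4 after division by library totals, where ACP2 fell just below. ACP4 (AT4G25050), the main leaf form, had 523 FPKM in wn1 and 377 FPKM in wild type, a ratio of 1.39 with a counting interval of 1.34 to 1.44. ACP1 (AT3G05020), ACP2 (AT1G54580) and ACP3 (AT1G54630) had 131, 149 and 131 FPKM in wn1, against 116, 137 and 109 FPKM in wild type. ACP4 made up 56.0% of the summed FPKM of the family in wn1 and 51.0% in wild type.

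Because closely related genes can share reads, the coding sequences were compared in RefSeq TAIR10.1. The 63 coding bases around the serine codon, which is in capitals, are shown for the 4 genes to make the likeness visible.
ACP1: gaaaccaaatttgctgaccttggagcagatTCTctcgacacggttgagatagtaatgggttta
ACP2: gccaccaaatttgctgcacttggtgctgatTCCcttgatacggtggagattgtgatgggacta
ACP3: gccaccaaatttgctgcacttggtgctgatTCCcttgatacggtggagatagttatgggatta
ACP4: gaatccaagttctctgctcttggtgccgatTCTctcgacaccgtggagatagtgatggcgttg
ACP2 and ACP3 differed at 3 of these bases and were 94.2% identical over the coding sequence, whereas ACP4 was 55.8% to 58.9% identical to the other three. Windows of 50 bases shared with any other annotated transcript, in either orientation, made up 1.87% of ACP2 and 1.50% of ACP3 and were not found in ACP1 or ACP4. Over the 39 genes, 31 shared no such window, and the highest share was 13.2%, in FAD8, which shared most with AT1G07780 and not with FAD7. BCCP2 and FAD4, at 12.7% and 12.4%, shared most with AT5G15520 and AT4G27040, genes that overlap them on the opposite strand. The read length is not given, and reads shorter than 50 bases would be shared more often.

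The 8 genes of the synthase cycle were divided, with 4 above the median of all genes and 4 below, as deposited and after division by library totals (5 and 3 when rescaled without organelle rows). MCAT (AT2G30200), which loads malonyl groups onto the carrier, had 42.7 FPKM in wn1 and 44.9 FPKM in wild type. KASIII (AT1G62640), which makes the first condensation, had 24.8 FPKM in wn1 and 22.0 FPKM in wild type. The condensing enzyme of most later rounds, KASI (AT5G46290), had 102 FPKM in wn1 and 100.4 FPKM in wild type. KASII (AT1G74960), which elongates palmitate to stearate, had 70.6 FPKM in wn1 and 59.4 FPKM in wild type. The condensing enzymes thus had ratios of wn1 to wild type from 1.02 to 1.19.

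Among the reducing and dehydrating steps, KAR (AT1G24360), the ketoacyl reductase, the gene of the cycle with the highest mean of both libraries, had 96.7 FPKM in wn1 and 110.1 FPKM in wild type. MOD1 (AT2G05990), the enoyl reductase, had 107 FPKM in wn1 and 82.1 FPKM in wild type. The dehydratase genes lay on opposite sides. FABZ-1 (AT2G22230) had 42.9 FPKM in wn1 and 70.6 FPKM in wild type, the lowest difference of the set, with a ratio of 0.61 and a counting interval of 0.55 to 0.68. FABZ-2 (AT5G10160) had 66.5 FPKM in wn1 and 50.7 FPKM in wild type. FABZ-2 made up 60.8% of the summed FPKM of both genes in wn1 and 41.8% in wild type. FABZ-1 overlaps AT2G22240 on the opposite strand by 19 bases, and AT2G22240 had 138 FPKM in wn1 and 333 FPKM in wild type. FABZ-2 overlaps AT5G10170 on the opposite strand by 36 bases, and AT5G10170 had 6.40 FPKM in wn1 and 19.5 FPKM in wild type. KAR overlaps AT1G24350 on the opposite strand by 244 bases. The part of these overlaps in the values of FABZ-1, FABZ-2 and KAR was not tested.

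**Figure D2:**
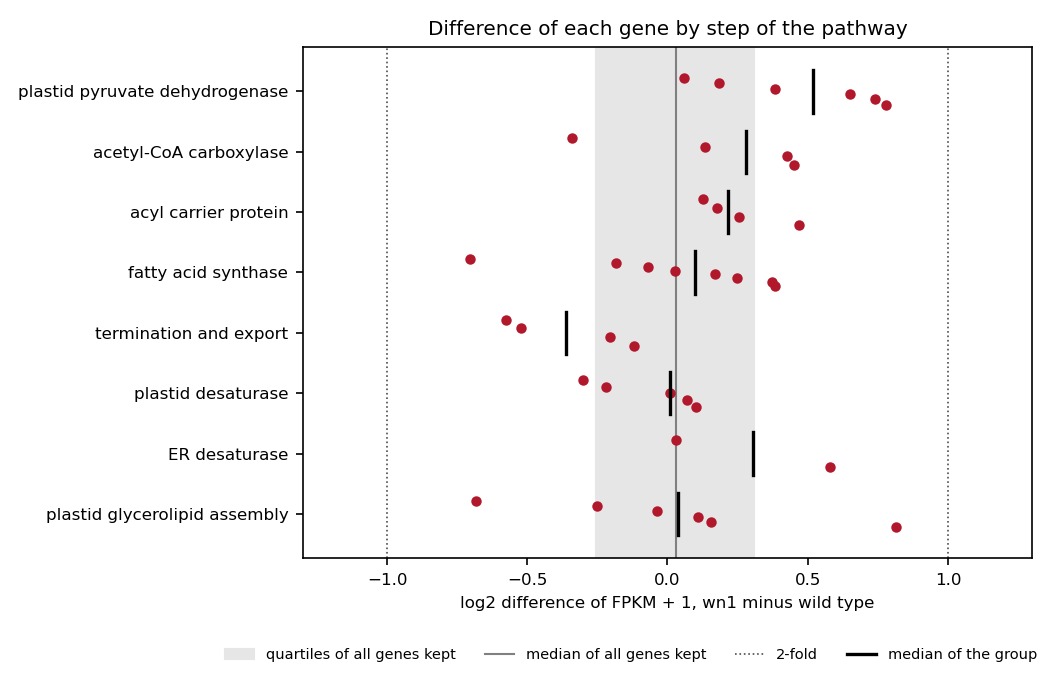
Log2 difference of FPKM + 1, wn1 minus wild type, of each of the 39 genes (red points) by step of the pathway, with the median of each step (black bars), the median and quartiles of the 18788 genes kept (grey) and 2-fold (dotted), as deposited. Relative to the grey median, pyruvate dehydrogenase lies to the right and chain termination and export to the left, and all points lie within the dotted lines.

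Shares within a family do not depend on the scaling between libraries, and they differed between the libraries in several pairs. PDH-E1-BETA-2 made up 48.8% of the FPKM of the beta chain genes in wn1 and 36.5% in wild type. BCCP2 made up 29.3% of the biotin carrier genes in wn1 and 22.9% in wild type. LPD2 hardly differed, at 60.2% of its pair in wn1 and 58.7% in wild type, although both LPD genes had higher levels in wn1 as deposited. FAD8, at 28.4% of the plastid omega-3 desaturase genes in wn1 and 27.3% in wild type, was likewise close. These shares come from 1 library each and have no replicate error.

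**Figure D3:**
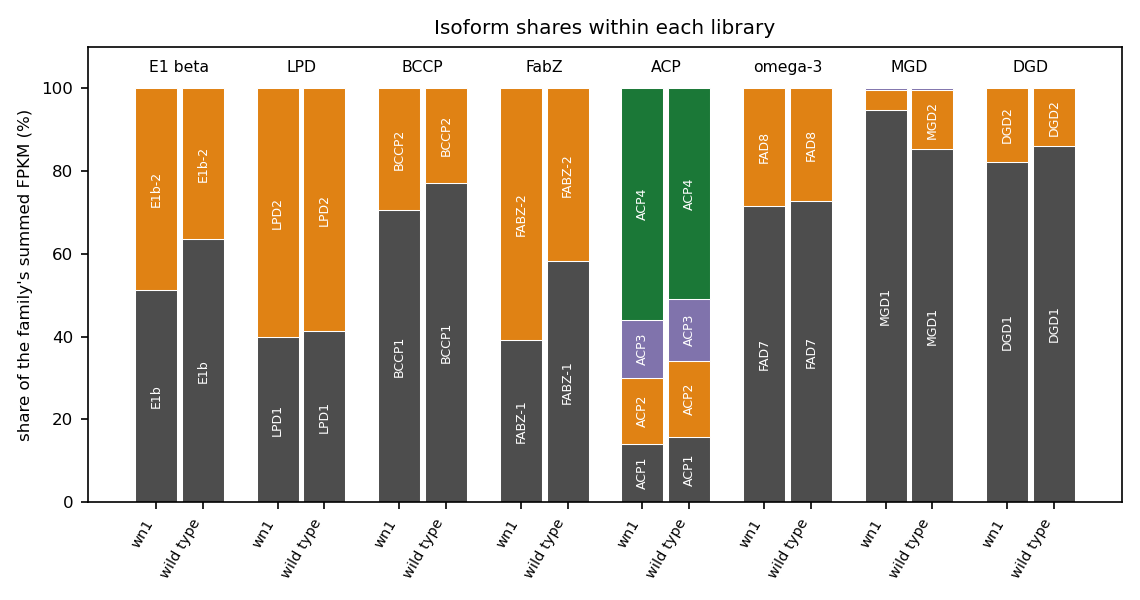
Share of each gene in the summed FPKM of its family (percent), in wn1 (left bar of each pair) and wild type (right bar), with 1 library per genotype. FABZ-2, PDH-E1-BETA-2, BCCP2 and MGD1 take larger shares in wn1, while the LPD and omega-3 desaturase (FAD7 and FAD8) pairs are split nearly alike in both libraries.

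Genes grouped as chain termination and export, the desaturase SSI2 among them, were below the median of all genes in 4 of 4 cases. Their median difference was -0.36. All 4 were also below the median of all genes under every scaling tried, a side that scaling could hardly change. SSI2 (AT2G43710), the stearoyl carrier protein desaturase that makes oleate, had 137 FPKM in wn1 and 205 FPKM in wild type, a ratio of 0.67 with a counting interval of 0.64 to 0.70. FATB (AT1G08510), the thioesterase that releases mainly saturated chains, had 75.6 FPKM in wn1 and 109 FPKM in wild type. FATA1 (AT3G25110), which releases oleate, had 10.4 FPKM in wn1 and 12.1 FPKM in wild type, and LACS9 (AT1G77590), the long-chain acyl-CoA synthetase of the plastid envelope, had 54.4 FPKM in wn1 and 59.2 FPKM in wild type. The FATA1 interval of 0.72 to 1.02 included equal levels.

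Relatives of these genes outside the set gave no uniform direction. FATA2 (AT4G13050), the second oleoyl thioesterase gene, had 20.7 FPKM in wn1 and 16.9 FPKM in wild type. AAD1 (AT5G16240) and AAD5 (AT3G02630), relatives of SSI2, had 9.15 and 16.4 FPKM in wn1, against 6.86 and 16.1 FPKM in wild type. SSI2 was thus far more abundant than its relatives in both libraries. Among 8 genes of this list 6 were kept, 4 of them above the median of all genes. After division by library totals 5 were above it, since AAD3 (AT5G16230), with 1.66 FPKM in wn1 and 1.91 FPKM in wild type, turned.

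The 5 plastid desaturases differed little. FAD6 (AT4G30950), the omega-6 desaturase and the most abundant of them, had 346 FPKM in wn1 and 322 FPKM in wild type. FAD5 (AT3G15850), which acts on palmitate of MGDG, had 197 FPKM in wn1 and 187 FPKM in wild type, and FAD4 (AT4G27030), which acts on palmitate of phosphatidylglycerol, had 131 FPKM in wn1 and 129.9 FPKM in wild type. The omega-3 desaturases that complete the trienoic fatty acids of thylakoids were lower in wn1 as deposited and relative to all genes. FAD7 (AT3G11170) had 182 FPKM in wn1 and 225 FPKM in wild type, and FAD8 (AT5G05580), whose transcript is known to rise in the cold, had 72.3 FPKM in wn1 and 84.3 FPKM in wild type. FAD6 and FAD5 were above the median of all genes as deposited, and all 5 were below it after division by library totals.

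The ER desaturases make the same kinds of double bonds in phospholipids. FAD2 (AT3G12120), the omega-6 enzyme and the most abundant gene of the whole set, had 676 FPKM in wn1 and 663 FPKM in wild type. FAD3 (AT2G29980), the omega-3 enzyme, had 123 FPKM in wn1 and 82.3 FPKM in wild type, a ratio of 1.50 with a counting interval of 1.41 to 1.59. FAD3 thus lay on the other side of equality from its plastid counterparts FAD7 and FAD8 as deposited. FAD3 was also above the median of all genes after division by library totals, and FAD2 below it.

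Genes that assemble glycerolipids in the plastid spanned most of the range of the set, with 3 of 6 above the median of all genes, or 2 of 6 after division by library totals. ATS1 (AT1G32200), the acyltransferase that starts the plastid pathway, had 46.3 FPKM in wn1 and 42.9 FPKM in wild type, and fell just below the median of all genes after that division. ATS2 (AT4G30580), which adds the second acyl group to give phosphatidic acid, had 67.9 FPKM in wn1 and 38.1 FPKM in wild type, the highest difference of the set at 0.82, with a ratio of 1.78 and a counting interval of 1.63 to 1.94. PGP1 (AT2G39290), which makes the precursor of phosphatidylglycerol, had 11.8 FPKM in wn1 and 12.2 FPKM in wild type.

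The galactolipid synthases of the set differed in direction. MGD1 (AT4G31780), which makes nearly all MGDG of chloroplasts, had 41.0 FPKM in wn1 and 36.7 FPKM in wild type. DGD1 (AT3G11670), the main DGDG synthase, had 32.8 FPKM in wn1 and 53.2 FPKM in wild type, a ratio of 0.62 with a counting interval of 0.57 to 0.66. DGD2 (AT4G00550), a minor synthase known for its induction by phosphate shortage, had 7.04 FPKM in wn1 and 8.57 FPKM in wild type. The summed FPKM of the DGD genes was 82.3% DGD1 in wn1 and 86.1% in wild type. MGD1 lay just above the median of all genes as deposited and after division by library totals, and DGD1 and DGD2 lay below it both ways.

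Sulfolipid and galactolipid genes outside the set included the lowest differences of all the pathway genes listed here. Of 6 genes, 5 were kept, all 5 were below the median of all genes, and 3 were at least 2-fold lower, against 3.65% of all genes kept. The scalings tried left all 5 below that median, a side that scaling could hardly change. SQD1 (AT4G33030), which makes the sulfur-bearing sugar nucleotide of sulfolipid, had 35.6 FPKM in wn1 and 116 FPKM in wild type, a log2 difference of -1.68. SQD2 (AT5G01220), which transfers that sugar to diacylglycerol, had 14.8 FPKM in wn1 and 51.1 FPKM in wild type, a difference of -1.72. MGD2 (AT5G20410), an envelope MGDG synthase known for its induction by phosphate shortage, had 2.13 FPKM in wn1 and 6.10 FPKM in wild type, with about 67 fragments behind the value in wn1 and 157 in wild type. Within the MGD family, MGD2 made up 4.93% of the FPKM in wn1 and 14.2% in wild type. UGP3 (AT3G56040), which makes UDP-glucose for sulfolipid in the plastid, stood apart from SQD1 and SQD2 with 53.3 FPKM in wn1 and 54.9 FPKM in wild type. SFR2 (AT3G06510), which remodels galactolipids on freezing, had 50.5 FPKM in wn1 and 65.3 FPKM in wild type, and MGD3 (AT2G11810) was near 0 in both libraries with 0.156 FPKM in wn1 and 0.237 FPKM in wild type.

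**Figure D4:**
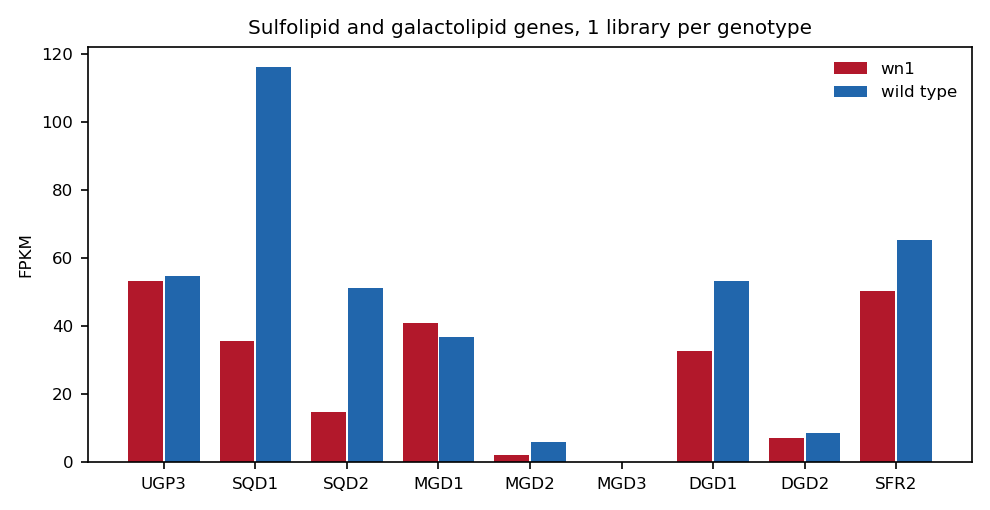
FPKM of sulfolipid genes (UGP3, SQD1, SQD2) and galactolipid genes in wn1 (red, left) and wild type (blue, right), with 1 library per genotype and no error bars for that reason. SQD1 and SQD2 are at 35.6 and 14.8 FPKM in wn1, against 116 and 51.1 FPKM in wild type, while UGP3 and MGD1 are nearly level as deposited.

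The phosphate response factor PHR1 binds a palindrome named P1BS, spelled GNATATNC. In the 250 bases before the gene start, these letters occurred in 1 of the 6 glycolipid genes outside the set, MGD2, in 1 of the 39 genes of the set, FAD6, and in 5.46% of all nuclear protein-coding genes. SQD1 and SQD2 had no match in this window, which leaves out the transcribed leader and all bases further upstream. The MGD2 window, at chr5:6896213-6896462 on the plus strand of TAIR10.1, is shown because MGD2 was the 1 gene with both a match and a difference of at least 2-fold, with the match in capitals.
MGD2: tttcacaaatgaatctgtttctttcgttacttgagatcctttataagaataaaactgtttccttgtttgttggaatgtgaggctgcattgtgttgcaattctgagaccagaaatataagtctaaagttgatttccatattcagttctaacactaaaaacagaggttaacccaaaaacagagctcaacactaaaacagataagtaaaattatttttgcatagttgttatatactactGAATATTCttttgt

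Transport of lipid between ER and plastid was read from 5 genes outside the set, of which 3 were above the median of all genes and none was 2-fold apart. TGD2 (AT3G20320) and TGD3 (AT1G65410), subunits of the envelope importer, had 26.5 and 22.7 FPKM in wn1, against 23.3 and 20.4 FPKM in wild type. TGD1 (AT1G19800), its permease, had 15.2 FPKM in wn1 and 18.6 FPKM in wild type. TGD4 (AT3G06960), an outer envelope lipid-binding protein, had 8.72 FPKM in wn1 and 6.62 FPKM in wild type. FAX1 (AT3G57280), which exports fatty acids from the plastid, had 13.0 FPKM in wn1 and 18.3 FPKM in wild type.

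Over all 31 other genes of the pathway, 28 were kept, with a median difference of 0.08. At 2-fold or more, 1 of these was higher and 3 were lower, against 3.67% and 3.65% of all genes kept. The higher one was accD. With a minimum mean of 5 FPKM, 23 were kept and only SQD1 and SQD2 were 2-fold apart, since accD and MGD2 dropped out. Over all genes kept at that minimum, 7.52% were 2-fold apart.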

How the data were processed

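Shoot RNA of wn1 and wild type was sequenced, 1 library per genotype. The authors deposited FPKM per annotated gene; the submitters' processing notes list Bowtie and TAIR10, and no source used here gives the counter, versions, strand or read length. The columns were matched by name (WN, WT), and 2 further columns of per-sample values were not used. Genes averaging 1 FPKM or more were compared by log2((wn1 + 1)/(wild type + 1)) (pandas 2.3.3, scipy 1.17.1), and at least 2-fold was the rule of size. Depth was estimated from genes with 1 transcript of at least 1000 bases and values under 0.15 FPKM: 49.8% of wn1 and 49.3% of wild-type values were within 0.05 of whole fragments at the depths given, with transcript lengths shortened by 240 bases, against 2.45% and 1.80% for a step 10 percent larger. Of these steps, only the filter and the 2-fold rule were run on simulated counts. That run did not cover the depth estimate, the counting intervals or the scaling between libraries. Members, lists and tests were chosen with earlier results of these data known. All 39 members could be named, as could other pathway genes at least 2-fold apart, accD, WRI1 and BADC genes; the others named were chosen after their values were seen. Sequences and lengths are from RefSeq TAIR10.1, matched by locus tag; the deposited table holds no coordinates, and those printed are of TAIR10.1. A withheld item is not reported here.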

Additional observations from a re-analysis of the deposited data

How the results depend on the processing

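Each of the 39 single differences stayed within 1.5-fold of the reported value with no filter, with a minimum mean of 5 FPKM, with a pseudocount of 0.1, on centring on the median of all genes and rescaling over rows that are not organelle-encoded. No gene of the set passed 2-fold under any of these, so that none could pass 4-fold. Scaling to a common total over all rows, which in wn1 follows 1 transfer RNA row, lowered nearly all genes alike: the median of the set became -0.88, that of the other pathway genes -0.83, the set had 12 genes at least 2-fold lower, and all genes had 93 higher and 6911 lower. Group medians then turned to -0.47 for pyruvate dehydrogenase, -0.71 for the carboxylase, -0.78 for acyl carrier proteins, -0.89 for the synthase, -0.99 for plastid desaturases, -0.70 for ER desaturases and -0.92 for glycerolipid assembly. Centring turned the plastid desaturase median to -0.018. At 4-fold, 72 genes were higher and 128 lower, against 690 and 685 at 2-fold. Of 38 isoform shares 36 stayed within 1.5-fold when 1 was added to each FPKM; the exceptions were those of MGD3, at 2.50% in wn1 and 2.69% in wild type, against 0.360% and 0.551% as reported. No paired analysis was possible because there is 1 library per genotype. Counting error is small at the depth of most genes of the set, and the spread between plants is unknown.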

Other observations

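Genes of the shoot epidermis, which uses plastid fatty acids for cutin and wax, were measured as markers. Of 6, 3 were above the median of all genes and 1 was at least 2-fold lower, against 3.65% of all genes kept. CER1 (AT1G02205), which acts in alkane formation for wax, had 20.4 FPKM in wn1 and 47.8 FPKM in wild type, a log2 difference of -1.19. CER6 (AT1G68530), a condensing enzyme of very-long-chain fatty acids, had 298 FPKM in wn1 and 537 FPKM in wild type. FDH (AT2G26250), a condensing enzyme of the same family, lay on the other side of the median of all genes with 263 FPKM in wn1 and 197 FPKM in wild type. The epidermal identity genes ATML1 (AT4G21750) and PDF1 (AT2G42840) had 28.7 and 318 FPKM in wn1, against 24.2 and 268 FPKM in wild type.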
